A study of Mus musculus with 6 samples.

Results

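Long intergenic noncoding RNAs (lincRNAs) are transcripts that lie between protein-coding genes and carry no long open reading frame. The members described here were the rows of the count table with the Ensembl biotype lincRNA that lay outside the X and Y chromosomes and had a mean raw count of at least 20 over the 6 libraries, which gave 135 of 672 lincRNA rows and of 19309 rows in all. The count level therefore chose the members, whereas the difference between genotypes did not enter the rule. With the mean taken over the sEH-/- libraries alone 127 of the 135 reached 20, over the wild-type libraries alone 129, and in both 121, so that 14 members reached it in 1 genotype only. All 135 were tested between the genotypes. Just inside the limit were B230303O12Rik, with a mean of 20.7 counts, and Gm20045 with 20.5, and just outside it F730035P03Rik with 19.7 and Gm16933 with 19.5.

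RNA was sequenced from macrophages grown from the bone marrow of 3 sEH-/- mice, which lack the soluble epoxide hydrolase that turns epoxides of polyunsaturated fatty acids into diols, and of 3 wild-type mice. Bone marrow monocytes of mice aged 8 to 10 weeks were grown for 7 days with GM-CSF and M-CSF at 15 ng/mL, stimulated with IFN-γ (1 ng/mL) together with LPS (10 ng/mL) to become M1 macrophages and then given TGF-β1 (10 ng/mL) to become M2c macrophages, in both genotypes alike. For the M1 step the labels state 24 h and the methods of the study 12 h, and for TGF-β1 48 h and 24 or 48 h. The labels name a stranded mRNA kit and the methods a stranded total RNA kit, a difference that bears on noncoding transcripts without a poly(A) tail. Per the methods, the animals of the study were littermates matched for age and strain, and females supplied the cells of most of its experiments.

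Some lincRNAs stay in the nucleus and organise compartments there, some act on genes near their own locus, and others serve mainly as the precursor from which a small RNA is cut. In macrophages, several are induced by inflammatory stimuli through NF-κB or interferon signalling, and a further group is induced by p53. Most are present at a lower level than mRNAs, and many have no known function.

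Library totals were 4400197 to 6096440 counts, and members held between 0.322% and 0.332% of them, in ranges that overlapped between the genotypes. *Ephx2*, the gene deleted in the sEH-/- mice, was counted 26, 49 and 57 times in wild-type and 4, 2 and 1 times in sEH-/- libraries. All 8 macrophage markers were detected, with a summed level, as counts scaled to a common library size (CPM), of 1985 to 2457 CPM in sEH-/- and of 1744 to 2204 in wild-type cells. Of 8 neutrophil markers 5 were in the table, with a sum of 65.7 to 112 CPM in sEH-/- and of 46.4 to 52.8 in wild-type cells, while *Ly6g*, *Mpo* and *Retnlg* were at 0 or had no row. Dendritic cell markers (5 of 7 in the table) summed to 26.5 to 57.3 CPM in sEH-/- and to 42.0 to 58.7 in wild-type cells, with *Flt3*, *Siglech* and *Cd209a* at 0 or without a row. None of the 8 lymphocyte markers and 1 of 5 erythroid markers had a row. The 6 stromal markers summed to 14.4 to 30.1 CPM in sEH-/- and to 11.7 to 62.3 in wild-type cells. No marker was called by edgeR, 7 had an unadjusted p below 0.05, among them both tested neutrophil markers (*S100a8* and *Csf3r*), and their part in the lincRNA values was not tested. In bulk RNA, fewer cells of a type and less RNA per cell cannot be told apart.

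The 135 lincRNAs were spread over 19 chromosomes. In 66 the symbol was a Gm number, in 46 a Rik clone name and in 7 another clone name, leaving 16 with a descriptive name. By the GENCODE M21 annotation of the same genome build, 22 had a single exon, 93 had 2 to 4 exons in their longest chain and 20 had 5 or more, with 11 at most. The exonic bases ranged from 269 to 20771, with a median of 2098, against a median of 4582 in the 10504 autosomal protein-coding genes chosen by the same count. Overlaps with other annotated genes were counted without genes of small, miscellaneous and ribosomal RNAs. Such a gene on the same strand overlapped 24 members and one on the other strand overlapped 38, while 82 overlapped none of the genes counted. Mean counts ran from 20.5 to 2270 with a median of 58.2: 4 members exceeded 1000 counts, 27 lay between 100 and 1000, 43 between 50 and 100 and 61 under 50. No member was at 0 in any library.

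By counts, the nuclear RNA *Malat1* was the most abundant. Its sEH-/- libraries held 2530, 1879 and 2120 counts and its wild-type libraries 2172, 2589 and 2330, ranges that overlapped. The log2 fold change, given throughout as sEH-/- over wild-type, was -0.01 (SE 0.11, edgeR adjusted p = 0.957). *Neat1*, the scaffold of the nuclear bodies called paraspeckles, had 1531, 1609 and 1413 counts in sEH-/- and 1295, 1493 and 1524 in wild-type cells, a log2 fold change of 0.19 (SE 0.10, edgeR adjusted p = 0.296). *Oip5os1*, also known as Cyrano and known for its pairing with a microRNA, had 1162, 1050 and 856 counts against 865, 1125 and 982. Scaled for library size sEH-/- and wild-type cells were at 203 ± 7.64 and 183 ± 7.08 CPM (SD, n = 3 each), values that did not overlap, but with a log2 fold change of 0.15 the RNA did not pass the test (SE 0.07, edgeR adjusted p = 0.215). *2900097C17Rik*, the mouse Norad that binds Pumilio proteins, was at 52.8 ± 2.53 CPM in sEH-/- and at 58.96 ± 3.21 in wild-type cells (SD, n = 3 each), with a log2 fold change of -0.16 (SE 0.08, edgeR adjusted p = 0.289). *AU020206*, *Dubr* and *AU022793* had log2 fold changes of 0.10, 0.11 and 0.11 and *Gm37494* of -0.06. Among the 10 members with the most counts, *AI504432* alone was called, and it is described below. The 4 most abundant members together held 33.1% to 38.3% of all lincRNA counts.

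Per length, the order was different. On a scale of CPM per kb of exonic bases, averaged over the 6 libraries, *AW112010* led with 124, ahead of the single-exon *Gm10134* with 83.5, *AU020206* with 76.2, *Malat1* with 62.5, *AU022793* with 47.3 and *Gm32089* with 45.3. The median of the members was 4.70 and the lowest value 0.415. *AW112010*, a transcript induced in inflamed macrophages that is known to encode a short protein despite its biotype, had 518, 543 and 486 counts in sEH-/- and 489, 517 and 538 in wild-type cells. Its genotypes overlapped (log2 fold change 0.11, SE 0.11, edgeR adjusted p = 0.603). *Gm10134* had 181, 236 and 142 counts against 113, 159 and 160. After scaling its genotypes did not overlap, with a log2 fold change of 0.49 (SE 0.17) that did not pass the test (edgeR adjusted p = 0.111). *Gm32089* came closer, with 331, 334 and 257 against 237, 268 and 251 counts, no overlap and a log2 fold change of 0.39 (SE 0.10, edgeR adjusted p = 0.060), below the fold required of a call. *AW112010* also carried the most reads for its size, 0.641 counts per exonic base in the mean, and 15 other members exceeded 0.1. Duplicate reads had been removed before counting, and a correction for at most 1 count per exonic base, chosen after seeing the data, left the 7 calls given below in place.

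**Figure D1:**
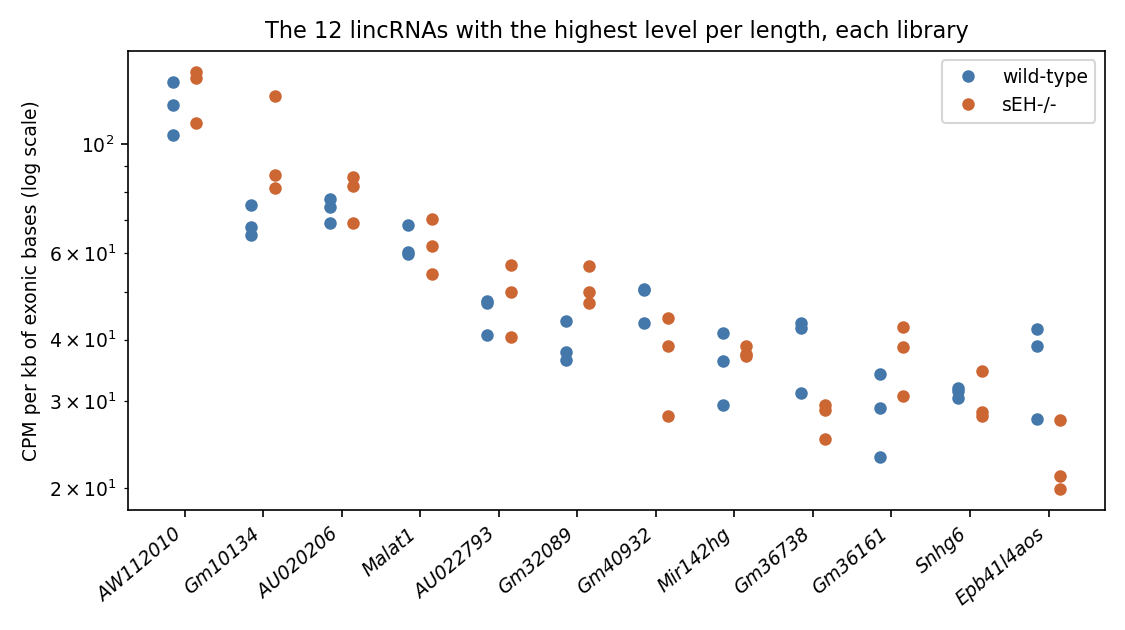
Level per length (CPM per kb of exonic bases, logarithmic axis) of the 12 lincRNAs that are highest on this scale, with every wild-type (blue) and sEH-/- (orange) library as a point. *AW112010* is highest at a mean of 124 and *Malat1*, first by raw counts, is the fourth at 62.5.

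Between the genotypes, 7 of the 135 lincRNAs differed, that is 5.19% of them, against 2.61% of the 13785 genes tested. A gene was called at an adjusted p below 0.05 together with a level at least 1.5-fold higher or lower (0.58 on the log2 scale). *AI504432*, *Gm14221* and *AI427809* were higher in sEH-/- cells, where 1.51% of all tested genes were called in this direction. *Snhg15*, *A530013C23Rik*, *F630040K05Rik* and *Trp53cor1* were lower, where 1.1% of all tested genes were called. At the same count level 5 of 143 antisense RNAs (3.497%), 5 of 88 processed transcripts (5.68%) and 290 of 10504 protein-coding genes (2.76%) were called.

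The median log2 fold change of the members was -0.05, beside -0.00092 over all tested genes, with 60 values above and 75 below 0. They were more spread, with a median absolute log2 fold change of 0.31 against 0.16 over all tested genes, and they were also measured less precisely, with a median SE of 0.22 against 0.12. An unadjusted p below 0.05 was reached by 42 members (31.1%), 17 of them higher and 25 lower, against 23.4% of all tested genes. The CPM values of the genotypes did not overlap in 50 members (37.0%), 20 higher and 30 lower, against 26.3% of all tested genes. A fold change beyond the limit without a call was seen in 29 members, 10 higher and 19 lower. Within a genotype, the median coefficient of variation of a member was 16.8% in sEH-/- and 12.9% in wild-type cells, against 8.88% and 6.80% in protein-coding genes.

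**Figure D2:**
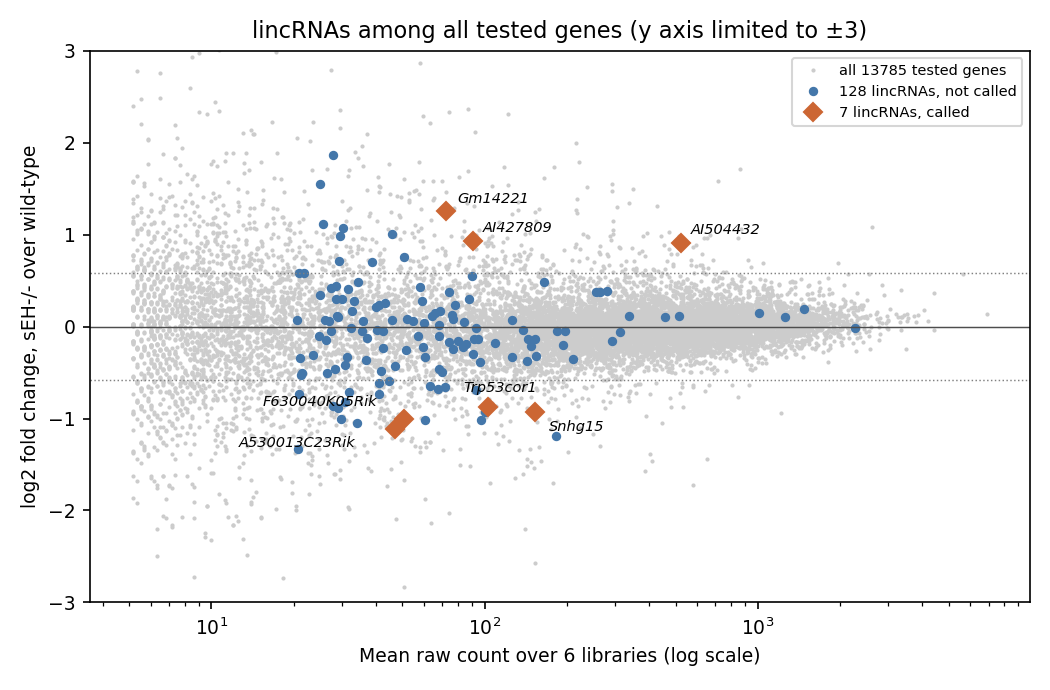
Mean raw count over the 6 libraries (logarithmic axis) against the log2 fold change of sEH-/- over wild-type for all 13785 tested genes (grey), the 128 lincRNAs that were not called (blue) and the 7 that were (orange diamonds). Dotted lines mark a 1.5-fold difference in either direction, and the called lincRNAs lie on both sides, at mean counts between 47.2 and 522.

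*AI504432* was the most abundant of the 7 and had the smallest adjusted p. It lies on the plus strand of mm10 chromosome 3, chr3:107039504-107054347, in 2 exons with 5569 exonic bases. The sEH-/- libraries held 775, 758 and 469 counts and the wild-type libraries 369, 396 and 366. Every sEH-/- library was above every wild-type library, at 131 ± 22.1 CPM (SD, n = 3) against 70.3 ± 9.37 CPM (SD, n = 3). This was a 1.88-fold higher level (log2 fold change 0.91, SE 0.13, edgeR adjusted p = 0.011). An annotated antisense RNA, *Gm27008*, overlaps it on the other strand, and counting used the strand.

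*Gm14221* had the largest ratio among the 3 that were higher. It lies on the minus strand at chr2:160568379-160619971, with 3 exons and 1667 exonic bases. There were 103, 119 and 78 counts in sEH-/- and 39, 47 and 49 in wild-type cells. All sEH-/- libraries lay above the wild-type libraries, at 19.9 ± 3.56 and 8.33 ± 0.62 CPM (SD, n = 3 each), a 2.39-fold higher level (log2 fold change 1.26, SE 0.19, edgeR adjusted p = 0.014).

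*AI427809* lies on the minus strand at chr4:53261356-53270232, with 2 exons and 2369 exonic bases. Its sEH-/- libraries held 105, 155 and 86 counts and its wild-type libraries 54, 72 and 70. The wild-type libraries lay close together at 12.03 ± 0.455 CPM, whereas the sEH-/- libraries varied more, at 23.1 ± 7.18 CPM (SD, n = 3 each), with replicate 2 the highest. The log2 fold change was 0.93 (SE 0.22), and the edgeR adjusted p of 0.045 was the largest of the 7.

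*Snhg15* was the most abundant of the 4 that were lower. It is a small nucleolar RNA host gene, a spliced transcript whose introns carry small nucleolar RNAs (snoRNAs), which guide the chemical modification of ribosomal RNA. Its locus, chr11:6525591-6528779 on the minus strand, has up to 4 exons and 1359 exonic bases and contains the annotation of 1 snoRNA, *Snora9*, at chr11:6528033-6528165. The counts here are those of the host's exons, and the level of the snoRNA was not analysed. The snoRNA annotated within this called host is shown in full, from the GENCODE M21 transcript sequences, 133 bases written 5′ to 3′:
Snora9: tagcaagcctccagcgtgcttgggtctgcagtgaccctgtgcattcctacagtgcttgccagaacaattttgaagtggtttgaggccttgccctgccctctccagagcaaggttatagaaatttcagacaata

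The sEH-/- libraries held 112, 85 and 99 *Snhg15* counts and the wild-type libraries 139, 259 and 221. The lowest wild-type library, replicate 1, stood at 30.6 CPM and the highest sEH-/- library at 22.96 CPM, so the genotypes did not overlap. The means were 19.8 ± 2.95 and 37.4 ± 6.05 CPM (SD, n = 3 each), a log2 fold change of -0.93 (SE 0.16, edgeR adjusted p = 0.018).

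*A530013C23Rik* had the largest ratio of those that were lower. It begins behind the gene of the transcription factor C/EBPβ on the plus strand, at chr2:167691177-167729172, with up to 4 exons and 5964 exonic bases. There were 39, 25 and 21 counts in sEH-/- and 47, 79 and 72 in wild-type cells, without overlap after scaling. The level was 5.53 ± 0.994 CPM in sEH-/- and 12.02 ± 1.46 in wild-type cells (SD, n = 3 each), with a log2 fold change of -1.11 (SE 0.22, edgeR adjusted p = 0.030).

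*F630040K05Rik* lies on the plus strand at chr17:45734506-45788594, with up to 5 exons and 5327 exonic bases. The sEH-/- libraries held 36, 26 and 34 counts and the wild-type libraries 58, 77 and 74. The wild-type libraries agreed closely at 12.8 ± 0.392 CPM, and all lay above the sEH-/- libraries at 6.43 ± 1.34 CPM (SD, n = 3 each). The log2 fold change was -1.004 (SE 0.21, edgeR adjusted p = 0.033).

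*Trp53cor1*, also known as lincRNA-p21, is a p53-induced lincRNA next to the cyclin-dependent kinase inhibitor gene *Cdkn1a*. It lies on the minus strand at chr17:29057430-29079179, with 2 exons and 3732 exonic bases. The sEH-/- libraries held 75, 55 and 75 counts and the wild-type libraries 102, 182 and 128. All sEH-/- libraries lay below the wild-type libraries, at 13.8 ± 3.25 against 25.0 ± 3.96 CPM (SD, n = 3 each), with a log2 fold change of -0.87 (SE 0.19, edgeR adjusted p = 0.039).

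**Figure D3:**
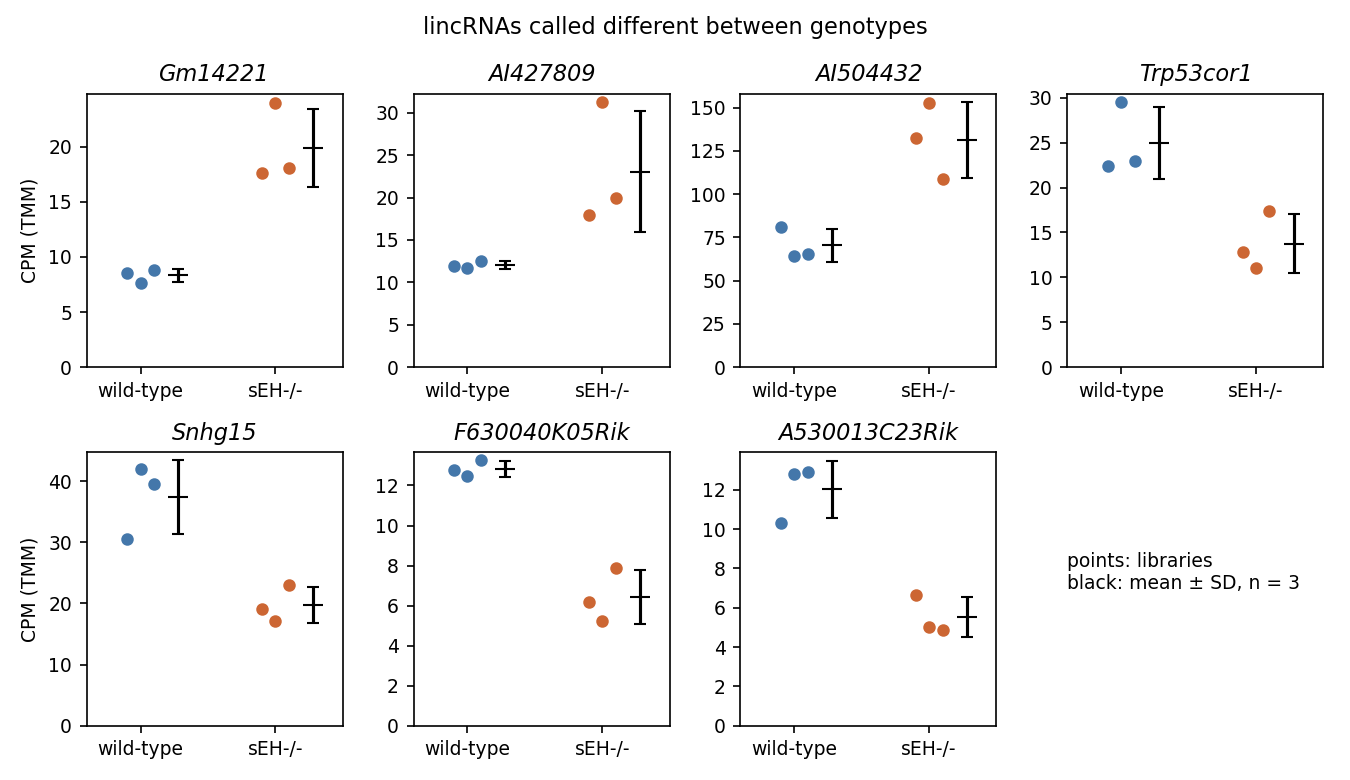
Level in CPM (TMM-normalized, each axis from 0) of the 7 called lincRNAs, with every wild-type (blue) and sEH-/- (orange) library as a point and the mean ± SD (n = 3) in black. In each panel the 3 libraries of one genotype lie entirely above those of the other, as for *AI504432* with 131 ± 22.1 CPM in sEH-/- and 70.3 ± 9.37 in wild-type cells.

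The number of calls depended on the library left out. Without wild-type replicate 2 or without wild-type replicate 3, none of the 135 lincRNAs was called by edgeR, although 26 and 30 had an unadjusted p below 0.05, and over all tested genes 25 and 6 calls were left. Without sEH-/- replicate 2 only *AI504432* and *Gm14221* were called, with 96 calls over all tested genes in place of 360. Without sEH-/- replicate 3 the members called rose to 15 (570 over all tested genes), without sEH-/- replicate 1 to 11 (518) and without wild-type replicate 1 to 11 (625). The direction of each of the 7 was the same with any library left out, with log2 fold changes between 0.81 and 1.04 for *AI504432*, 1.12 and 1.34 for *Gm14221*, 0.67 and 1.10 for *AI427809*, -1.05 and -0.83 for *Snhg15*, and -1.05 and -0.73 for *Trp53cor1*. DESeq2 called 12 members, against 3.56% of all genes to which it gave an adjusted p. These were the same 7 with *Gm42047*, *Gm17767*, *2310069B03Rik*, *A130077B15Rik* and *Gm38832*.

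The members just short of a call are named after their values were seen. *2310069B03Rik* had 50, 28 and 35 counts in sEH-/- and 48, 108 and 94 in wild-type cells, without overlap after scaling (log2 fold change -1.02, SE 0.25, edgeR adjusted p = 0.051). *B230303O12Rik*, at the lower limit of the counts, had 15, 7 and 11 against 18, 40 and 33 and the most negative value of all members (log2 fold change -1.33, SE 0.33, edgeR adjusted p = 0.053). *A130077B15Rik* had the most positive value at 1.87, but its counts of 42, 69 and 19 against 18, 4 and 15 scattered widely within each genotype (SE 0.54, edgeR adjusted p = 0.073). In *Gm38832*, with 49, 46 and 16 against 20, 7 and 12 counts, the genotypes overlapped (log2 fold change 1.55, SE 0.47, edgeR adjusted p = 0.080). *B230303O12Rik*, *A130077B15Rik* and *Gm38832* are among the 14 members that did not reach a mean of 20 in both genotypes. They reached it only in the genotype where they are higher, so the count rule favours such extremes. In *F730311O21Rik*, with 149, 38 and 127 against 189, 367 and 228 counts, sEH-/- replicate 2 was far below the other sEH-/- libraries (log2 fold change -1.19, SE 0.34, edgeR adjusted p = 0.070). The same library was lowest in *Gm17767*, with 63, 34 and 83 against 107, 171 and 124 counts. In *Gm42047* the odd library was sEH-/- replicate 1, which with 121 counts resembled the wild-type libraries at 133, 163 and 106, while the other sEH-/- libraries held 36 and 44. An adjusted p between 0.05 and 0.1 was found for 15 members in all, 7 higher and 8 lower in sEH-/- cells.

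RefSeq promoter windows (assembly GRCm38.p6, 250 bases before to 50 bases after an annotated start) were matched by symbol to 84 members, including 4 of the 7 called. *AI504432*, *AI427809* and *Trp53cor1* had none, and the window of *Gm14221* starts a different transcript, 39202 bases from the deposited gene start. The windows of the other 3, all lower in sEH-/- cells, are shown because these members moved in the same direction and yet differ in base composition. Capitals mark each CG, the dinucleotide that is depleted in most of the genome and dense in CpG islands. All 3 are written 5′ to 3′ on the gene's own strand, at chr11:6528711-6529010 on the minus strand for *Snhg15*, chr2:167690927-167691226 on the plus strand for *A530013C23Rik* and chr17:45734256-45734555 on the plus strand for *F630040K05Rik*:
Snhg15: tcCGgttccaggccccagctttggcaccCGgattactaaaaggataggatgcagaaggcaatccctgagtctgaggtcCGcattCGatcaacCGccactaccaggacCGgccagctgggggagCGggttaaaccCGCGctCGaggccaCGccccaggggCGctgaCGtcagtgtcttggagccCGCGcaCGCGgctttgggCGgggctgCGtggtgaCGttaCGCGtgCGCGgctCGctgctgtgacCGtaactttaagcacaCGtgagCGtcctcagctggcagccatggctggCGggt
A530013C23Rik: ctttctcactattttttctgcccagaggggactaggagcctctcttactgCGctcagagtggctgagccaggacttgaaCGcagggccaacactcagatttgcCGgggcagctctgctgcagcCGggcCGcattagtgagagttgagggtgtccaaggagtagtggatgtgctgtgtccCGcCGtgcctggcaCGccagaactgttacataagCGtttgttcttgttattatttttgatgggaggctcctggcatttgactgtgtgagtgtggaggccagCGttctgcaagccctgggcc
F630040K05Rik: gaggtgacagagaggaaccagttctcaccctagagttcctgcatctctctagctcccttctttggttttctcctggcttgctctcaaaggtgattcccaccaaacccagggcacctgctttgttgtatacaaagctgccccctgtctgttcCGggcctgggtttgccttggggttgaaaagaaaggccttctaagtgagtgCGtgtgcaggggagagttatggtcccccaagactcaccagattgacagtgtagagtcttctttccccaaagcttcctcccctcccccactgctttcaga

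The *Snhg15* window held 29 CG and 64.7% G or C, that of *A530013C23Rik* 10 CG and 55.7%, and that of *F630040K05Rik* 2 CG and 53%. The median was 7 CG both over the 84 member windows and over all 32851 windows. At least 20 CG were found in 17 of the 84 (20.2%) and in 26.5% of all windows. Motifs were then searched as exact letters on both strands. None of the 4 windows of called lincRNAs held the NF-κB letters GGGNNNTTCC, the AP-1 letters TGANTCA, the interferon-response letters GAAANNGAAA, a pair of the p53 core letters CATG with 6 bases between them, or the Smad palindrome GTCTAGAC. Each of these was in at most 7.81% of all windows, and the *Gm14221* window belongs to another transcript. Their absence from 4 windows is therefore uninformative. Over the members, the NF-κB letters were in 11 of 84 windows (13.1%), against 5.56% of all windows, and a window of *AW112010*, 5242 bases from its deposited gene start, was one of them. The AP-1 letters were in 10 (11.9%), against 7.81%, among them *2310069B03Rik* and a window of *Morrbid* that lies 73414 bases from the deposited gene start. The interferon-response letters were in 4 (4.76%), against 3.44%, *Ptgs2os2* among them. The p53 pair and the Smad palindrome were in no member window, against 0.712% and 0.213% of all windows. Of the 84 member windows, 55 lay within 100 bases of the deposited gene start. A match of letters is not a binding site, and these windows include several per gene in the full set.

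Host genes of small RNAs were next considered as a group. In all, 12 members contained 21 annotations of small RNAs. *Snora16a* in *Snhg12* and *Mir1839* in *2900076A07Rik* were each annotated more than once, so there are fewer distinct small RNAs than annotations. Of the 29 listed host genes of any biotype 23 were tested and 7 were members. Only *Snhg15* was called, where 2.61% of all tested genes were called. The median of the 23 was -0.05, with 9 above and 14 below 0. *Snhg12*, with 5 snoRNA annotations within its locus, had 223, 154 and 143 counts in sEH-/- and 166, 238 and 236 in wild-type cells, a log2 fold change of -0.20 (SE 0.11, edgeR adjusted p = 0.340). *Snhg6* and *Snhg20* had log2 fold changes of -0.05 (SE 0.11) and -0.03 (SE 0.15). *Epb41l4aos*, at 50, 45 and 51 against 54, 103 and 101 counts, came nearest to *Snhg15*, without overlap after scaling but without a call (log2 fold change -0.68, SE 0.22, edgeR adjusted p = 0.094).

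Several hosts carry microRNAs that are well known in myeloid cells, and their mature forms are shown to identify what each host carries, since only the host transcripts were counted. miR-155 is induced by LPS and NF-κB, miR-142 is abundant throughout blood cells, and the let-7 family restrains proliferation and cytokine mRNAs. The sequences are from RefSeq on GRCm38.p6, 5′ to 3′, with the seed (bases 2 to 8) in capitals. The 5p forms of let-7 carried by *6720427I07Rik* share 1 seed, and the forms shown for *Mir155hg* and *Mir142hg* have others:
mmu-miR-155-5p: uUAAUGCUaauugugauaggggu
mmu-miR-142a-3p: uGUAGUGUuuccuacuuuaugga
mmu-let-7a-5p: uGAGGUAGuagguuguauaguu
mmu-let-7d-5p: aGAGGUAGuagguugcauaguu
mmu-let-7f-5p: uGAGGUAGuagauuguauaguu

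*Mir155hg* had 112, 32 and 37 counts in sEH-/- and 22, 29 and 43 in wild-type cells. Only sEH-/- replicate 1 lay clearly above the wild-type libraries, and the log2 fold change of 1.01 (SE 0.40, edgeR adjusted p = 0.160) dropped to 0.38 without that library. *Mir142hg*, with 61, 50 and 43 against 36, 60 and 62 counts, and *6720427I07Rik*, with 76, 65 and 52 against 48, 80 and 65, overlapped between the genotypes. Their log2 fold changes were 0.08 (SE 0.20) and 0.11 (SE 0.17).

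Of the 6 listed p53-linked RNAs 5 were tested, 1 above and 4 below 0, with a median of -0.25. *Trp53cor1* was the one called, where 2.61% of all tested genes were called. *Pvt1*, a long RNA that lies beside *Myc* and holds a p53-responsive element, had 69, 52 and 80 counts in sEH-/- and 78, 153 and 128 in wild-type cells. Replicate 3 of the sEH-/- and replicate 1 of the wild-type libraries overlapped after scaling, and the log2 fold change of -0.69 did not pass the test (SE 0.23, edgeR adjusted p = 0.103). None of the 8 tested inflammation-linked RNAs was called by edgeR, 6 above and 2 below 0 with a median of 0.16. An unadjusted edgeR p below 0.05 was reached by 2, *Mir155hg* and *Mirt1*, against 23.4% of all tested genes. *Mirt1*, a processed transcript and not a member, had the largest difference of the list and lay below 0. It had 11, 1 and 11 counts in sEH-/- and 20, 48 and 31 in wild-type cells. Its genotypes did not overlap after scaling (log2 fold change -1.95, SE 0.50, edgeR adjusted p = 0.056). The members on this inflammation-linked list included *Morrbid*, which controls the survival of short-lived myeloid cells, at -0.05 (SE 0.13). *Ptgs2os2*, known as lincRNA-Cox2 and induced by Toll-like receptor ligands, had 57, 40 and 11 counts in sEH-/- and 32, 28 and 32 in wild-type cells, with the sEH-/- libraries on both sides of the others (log2 fold change 0.28, SE 0.40, edgeR adjusted p = 0.724). None of the 8 tested nuclear and imprinted RNAs was called, with 4 on either side of 0. Of these, 1 had an unadjusted edgeR p below 0.05, against 23.4% of all tested genes. This was *Airn*, an antisense RNA and not a member, with 95, 76 and 61 counts in sEH-/- and 96, 161 and 116 in wild-type cells. The genotypes of *Airn* did not overlap after scaling (log2 fold change -0.57, SE 0.15, edgeR adjusted p = 0.062).

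The mRNAs of proteins that bind or degrade such transcripts were read from the same fit. Of 18 listed genes of paraspeckle proteins, the partners of *Neat1*, 17 had a log2 fold change above 0, with a median of 0.13. Among all 13785 tested genes, 6867 were above 0. An unadjusted edgeR p below 0.05 was reached by 8 of the 18, against 23.4% of all tested genes. These genes share the same 6 libraries and are not independent replicates, and the list was chosen with earlier results known. Of the 18, 1 was called higher, against 1.51% of all tested genes. This was *Sfpq*, an RNA-binding protein that is essential for paraspeckles, with 910, 748 and 550 counts in sEH-/- and 486, 574 and 501 in wild-type cells. It was at 145 ± 15.1 and 96.6 ± 9.03 CPM (SD, n = 3 each), without overlap, and its log2 fold change of 0.59 (SE 0.10, edgeR adjusted p = 0.017) stood just above the 1.5-fold limit. *Hnrnph3* was the gene of this list below 0, at -0.29 (SE 0.10, edgeR adjusted p = 0.109). Of 25 tested RNA decay factors none was called by edgeR, and 2 had an unadjusted p below 0.05, against 23.4% of all tested genes. The median of the decay factors was -0.00026 with 12 above and 13 below 0. *Smg1* and *Smg5* of nonsense-mediated decay, among the most abundant of them, were at -0.03 (SE 0.12) and 0.07 (SE 0.09).

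The nearest protein-coding gene on each side of the 7 called lincRNAs was compared next, since some lincRNAs act on, or are transcribed with, the genes beside them. Of these 14 neighbours, 1 was called, where 2.61% of all tested genes were called. *Kcna3*, which encodes the voltage-gated potassium channel Kv1.3 of leukocytes, ends 1434 bases before *AI504432* on the same strand. It had 179, 113 and 74 counts in sEH-/- and 54, 61 and 36 in wild-type cells. All sEH-/- libraries lay above the wild-type libraries, at 23.5 ± 6.76 and 9.41 ± 2.74 CPM (SD, n = 3 each), with a log2 fold change of 1.34 (SE 0.26, edgeR adjusted p = 0.027). On the other side, *Kcna2* was near the detection limit with 4 to 30 counts (log2 fold change -0.998, SE 0.58, edgeR adjusted p = 0.336). Whether reads of both come from a single transcript was not tested.

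*Trp53cor1* lay 11.8 kb from *Cdkn1a*, the p53 target that encodes p21, on the opposite strand. *Cdkn1a* had 1225, 953 and 1063 counts in sEH-/- and 1233, 1521 and 1485 in wild-type cells. After scaling, its genotypes did not overlap, but its highest sEH-/- and lowest wild-type library were almost level. The log2 fold change of -0.28 (SE 0.10) did not pass the test (edgeR adjusted p = 0.116). *Srsf3*, a splicing factor gene on the other side, was at 0.30 (SE 0.08, edgeR adjusted p = 0.064), with no overlap. The 2 neighbours thus had opposite signs.

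*A530013C23Rik* starts 759 bases behind *Cebpb* on the same strand. *Cebpb* had 786, 768 and 682 counts in sEH-/- and 690, 791 and 793 in wild-type cells, with a log2 fold change of 0.08 (SE 0.09, edgeR adjusted p = 0.614), where the lincRNA was at -1.11. *F630040K05Rik* starts head to head with *1600014C23Rik*, 662 bases away, which had 6 to 16 counts and a log2 fold change of -0.20 (SE 0.38). *Vegfa*, on its far side, was at 0.20 (SE 0.09, edgeR adjusted p = 0.222). Beside *AI427809*, the cholesterol exporter gene *Abca1* was at 0.36 (SE 0.14, edgeR adjusted p = 0.154) and *Slc44a1* at 0.02 (SE 0.07). *Top1* beside *Gm14221* was at -0.05 (SE 0.07), and *Myo1g* and *Ccm2* beside *Snhg15* at 0.04 (SE 0.07) and -0.09 (SE 0.09). None of these was called.

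**Figure D4:**
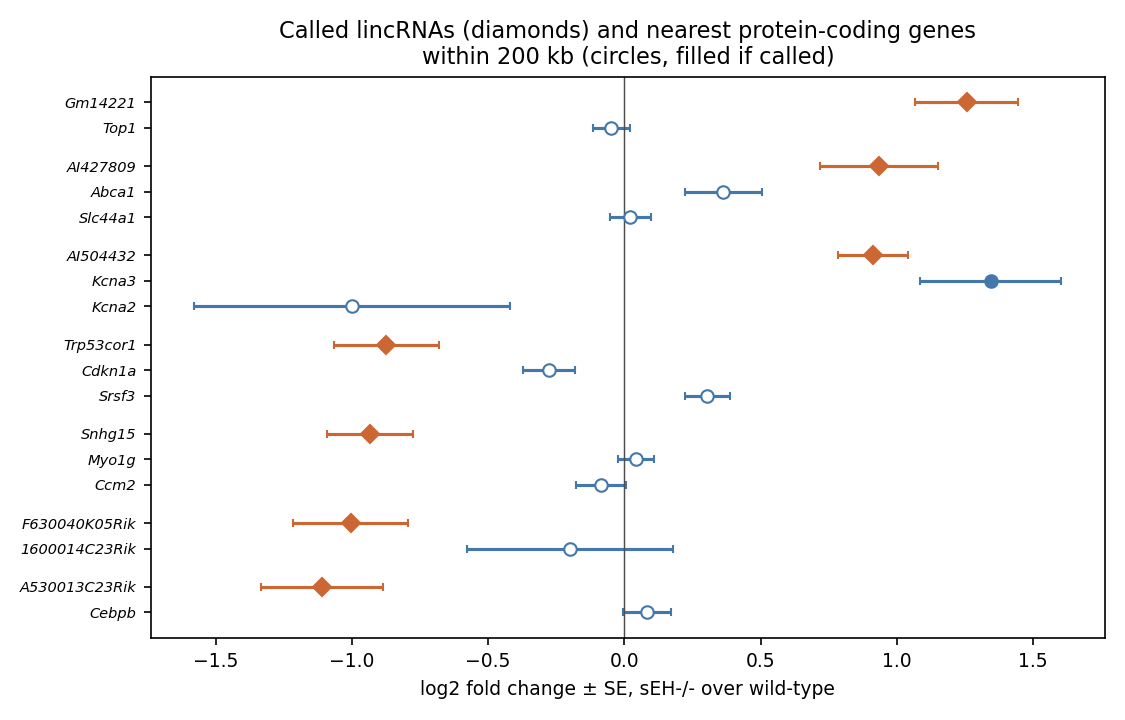
Log2 fold change ± SE of the 7 called lincRNAs (orange diamonds) and, under each, its nearest protein-coding genes within 200 kb (blue circles, filled where called). *Kcna3*, at 1.34, is the only filled circle, beside *AI504432* at 0.91.

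The reverse case was also present, that is, a called neighbour beside a lincRNA without a call, and the following were picked after their values were seen. *Myc*, 47.6 kb before *Pvt1* on the same strand, had 117, 79 and 53 counts in sEH-/- and 31, 24 and 41 in wild-type cells, a log2 fold change of 1.44 (SE 0.27, edgeR adjusted p = 0.027), whereas *Pvt1* was at -0.69. *Tspoap1*, 3.27 kb behind *Mir142hg*, had 70, 56 and 103 against 136, 369 and 330 counts (log2 fold change -1.70, SE 0.31, edgeR adjusted p = 0.024), whereas *Mir142hg* was at 0.08. *Ptpdc1*, 31.4 kb from *6720427I07Rik*, had 72, 46 and 49 against 80, 138 and 133 counts (log2 fold change -0.95, SE 0.18, edgeR adjusted p = 0.027), and *6720427I07Rik* was at 0.11. The difference between a lincRNA and its neighbour was not itself tested.

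Over all members, 134 were paired with the nearest tested gene among their overlapping and flanking protein-coding genes, by the distance between starts. Untested genes that lay closer were passed over. Of the paired genes 131 were distinct, at a median of 28.03 kb between the starts. In 42 pairs the starts lay within 10 kb. With untested neighbours counted as well, 18 members were head to head with a protein-coding gene. In 4 of the 134 pairs the protein-coding gene was called, where 2.61% of all tested genes were called. The pair had the same sign in 74 of the 134 (55.2%), and Pearson's r across pairs was 0.145 and Spearman's rho 0.140. The pairs share the same 6 libraries, and genes are not independent replicates.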

How the data were processed

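RNA-seq of M2c-polarized macrophages from 3 sEH-/- and 3 wild-type mice was analysed from a table of raw counts for 19309 genes that the authors deposited. Per the methods of the study, trimmed reads were aligned to mm10, duplicates and reads that were mitochondrial, ribosomal or mapped to several places were removed, and the rest were counted over exons with regard to strand, leaving out reads shared by genes. The submitters' processing notes name Trimmomatic 0.39, STAR 2.7.7a, Picard 2.21.7, featureCounts 1.6.5 and DESeq2 1.30.0. The methods give other versions.

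The counts were fitted with edgeR 4.0.16 under R 4.3.3 (TMM, glmQLFit, glmQLFTest, no covariates, two-sided) over the 13785 genes with a mean count above 5, with Benjamini-Hochberg adjustment over all of them. The SE was obtained from the log2 fold change and the F statistic, as their size over the root of F. CPM use TMM-normalized library sizes, and CPM per kb the exonic bases of GENCODE M21, where 133 of the 135 members have the deposited coordinates. The common biological coefficient of variation was 0.0866, and precision is limited by 3 libraries a group. Within a genotype, counts of library pairs differed by more than sampling noise (chi-square per degree of freedom 2.24 to 4.89). The scripts were tested on simulated data. Alternatives were DESeq2 1.42.0, RLE, library size alone, other filters, a replicate block, each library left out, other count limits for members and, chosen after seeing the data, a correction for 1 count per exonic base at most.

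The members and gene lists were chosen with earlier results of these data known. Named were the called members and their nearest protein-coding genes, the 10 members with the most counts, members on the lists of noncoding RNAs, those at the count limit, *Ephx2*, and of the protein lists the called genes and up to 3 of the most abundant. Some genes that this rule names are not reported here. *Gm10134*, *Gm32089*, *6720427I07Rik*, *Hnrnph3*, *Mirt1*, *Airn* and the members short of a call were added after their values were seen. Of 3 listed loci that collect ribosomal RNA reads, 0 were in the table.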

Additional observations from a re-analysis of the deposited data

Results flagged for a closer look

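Among the 158 tested autosomal lincRNAs with a mean count under 20, which the report leaves out, 10 (6.33%) were called in the same edgeR fit, against 2.61% of all tested genes. *Gm29233* had the largest log2 fold change, 3.71 (SE 0.56), with 44, 30 and 29 counts in sEH-/- and 6, 2 and 0 in wild-type cells. *Gm13814* was at 2.20, *Gm26797* at 2.13, *Gm29336* at 1.89, *Gm48065* and *AI839979* both at 1.88 and *1110002J07Rik* at 1.61, all higher in sEH-/- cells. *Gm5535* was at -1.65, *Gm12796* at -1.93 and *Gm10010* at -2.15, lower in sEH-/- cells. *Gm26797* had an uneven sEH-/- group, with 28, 32 and 8 counts against 7, 4 and 5. With mean counts from 5.50 to 18.5, single libraries hold few reads of these transcripts. The test took genes with a mean count above 5 over both genotypes, so a transcript could enter it through the genotype where it is higher. *Gm13814*, with 11, 10 and 6 counts in sEH-/- and 2, 3 and 1 in wild-type cells, is an example. How far this filter shapes their fold changes and the share called was not tested.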

How the results depend on the processing

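With DESeq2, 5 lincRNAs were called higher and 7 lower, and without a count filter 7 and 9, where edgeR with the filter called 3 and 4. Calls over all genes rose as well, from 360 to 472 with DESeq2 and to 514 without a filter. With members of at least 10 counts in the mean (218 lincRNAs), 9 were called higher and 7 lower, and with at least 50 (74 lincRNAs) the median log2 fold change was -0.083. With each library left out in turn, the number called higher ranged from 0 to 7 and the number called lower from 0 to 8, the median log2 fold change from -0.11 to -0.023, and the number of called neighbours from 0 to 1. The cause was not tested. RLE factors, library size alone, filterByExpr and the correction for covered bases kept all 7 calls.

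The labels number the replicates 1 to 3 in both genotypes and do not state a pairing. The deviations of libraries with the same number from their group means correlated at -0.070, -0.23 and -0.030. With 3 libraries a group, these values cannot tell whether the numbers pair the libraries. With the replicate block, 3 of the 7 were called, *AI504432*, *Gm14221* and *Snhg15*, so that 1 was lower.

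Signs turned with a library left out for members near 0. Over the libraries left out, *Malat1* ranged from -0.10 to 0.094, *Gm37494* from -0.14 to 0.0082, *Morrbid* from -0.12 to 0.075, *Snhg6* from -0.14 to 0.023, *Snhg20* from -0.12 to 0.11, *Mir142hg* from -0.034 to 0.20, *Ptgs2os2* from -0.074 to 0.65 and *Gm20045* from -0.24 to 0.31. Of the other values of named lincRNAs under the alternatives, 419 kept their direction and side of the threshold, 25 lost a call and 25 gained one. At this depth 29 members had a fold change past the limit without a call, so that a missing call does not show that a lincRNA did not differ.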
